A study of Homo sapiens with 44 samples.

Results

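The hypoxia response and glycolysis genes examined here were 40 genes taken from a list of names, with no threshold on a measured value. The list was chosen with earlier results of these data known, so it is not independent of them. They comprised 2 glucose transporters, 15 enzymes of glycolysis, 2 enzymes that set the level of an activator of phosphofructokinase, 6 genes of pyruvate and lactate handling, 5 subunits or oxygen sensors of the hypoxia-inducible factors (HIF) and 10 hypoxia-induced effectors. All 40 were present among the 58735 gene identifiers of a count table and among the 27315 gene symbols of a table of variance-stabilised values. RNA was sequenced in 14 libraries from MDA-MB-231 and SUM149, established human breast cancer lines of the triple-negative class, which lack the oestrogen and progesterone receptors and amplified HER2. In the siRel experiment, MDA-MB-231 cells received siRel-Control, siRelA or siRelB, and in the siEZH2 experiment both lines received siEZ-Control or siEZH2. The siRNAs were delivered at 20 nM with a lipid reagent, the cells were harvested after 48 h, and each of the 7 groups held 2 libraries that the labels call biological replicates. Controls were transfected as well, so each comparison is between siRNAs. The labels record no oxygen treatment, the knockdowns were transient and partial, and the sources used here do not give the siRNA sequences.

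Glycolysis turns glucose into pyruvate in the cytosol, and lactate dehydrogenase and the monocarboxylate transporters dispose of that pyruvate as lactate. HIF1A and EPAS1 are the oxygen-labile alpha subunits of HIF. In the presence of oxygen the EGLN prolyl hydroxylases mark them for destruction, and when oxygen is low they pair with ARNT and activate genes of glucose uptake, glycolysis, angiogenesis and mitophagy. Many cancer cells keep glycolysis active in oxygen as well. RELA and RELB are DNA-binding subunits of NF-kB, while EZH2 is the subunit through which Polycomb repressive complex 2 methylates histone H3.

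HIF binds sites with a core such as ACGTG, and several members are textbook targets through such sites. Only ACGTG was searched here, so a window without a match may hold another form of the core. RefSeq promoter windows on GRCh38.p14, from 250 bases before to 50 bases after the transcription start, were matched by symbol for 35 of the 40 genes, with none for SLC2A3, SLC16A1, BNIP3L, VEGFA and NDRG1. The letters ACGTG occurred on either strand in 14 of these 35 windows (40%), beside 5900 of 27305 windows of all genes (21.6%). The 14 were those of HK2, GPI, ALDOA, ALDOC, GAPDH, PGK1, ENO2, LDHA, PDK3, EGLN1, BNIP3, CA9, ANKRD37 and P4HA1. A single window was used per gene, and other starts of a gene were not searched. The window of GPI, for example, began at 34364742, while its gene model begins at 34359480. The 250 bases before the start are shown 5′ to 3′ for LDHA, HK2 and BNIP3, which fell after siRelA, with the matches in capitals.

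LDHA (chr11:18394313-18394562, plus strand): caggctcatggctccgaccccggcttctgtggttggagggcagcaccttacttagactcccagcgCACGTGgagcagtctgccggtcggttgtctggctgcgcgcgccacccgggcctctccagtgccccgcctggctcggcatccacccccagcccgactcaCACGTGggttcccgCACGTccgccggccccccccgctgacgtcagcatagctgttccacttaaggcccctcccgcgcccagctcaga

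HK2 (chr2:74833877-74834126, plus strand): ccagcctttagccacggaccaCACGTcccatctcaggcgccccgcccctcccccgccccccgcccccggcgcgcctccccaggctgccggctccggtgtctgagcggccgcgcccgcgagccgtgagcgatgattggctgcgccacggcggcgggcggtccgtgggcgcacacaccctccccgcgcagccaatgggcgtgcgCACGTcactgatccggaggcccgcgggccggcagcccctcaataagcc

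BNIP3 (chr10:131981924-131982173, minus strand): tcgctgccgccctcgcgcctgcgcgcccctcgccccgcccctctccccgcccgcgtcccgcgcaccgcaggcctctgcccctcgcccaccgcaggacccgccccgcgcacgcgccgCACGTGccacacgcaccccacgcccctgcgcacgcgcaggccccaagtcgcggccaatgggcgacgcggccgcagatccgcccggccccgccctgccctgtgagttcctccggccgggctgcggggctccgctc

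LDHA held 5 matches, counting the palindrome CACGTG on both strands, HK2 held 2 and BNIP3 held 2. A match is a run of letters and not a measured binding site. The kappa-B consensus, a motif of 10 letters bound by NF-kB and searched on both strands, occurred in 5 of the 35 windows (14.3%), those of SLC2A1, PFKM, ENO1, ARNT and CA9, beside 2958 of 27305 windows of all genes (10.8%).

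The count table held 18.6 to 24.4 M counts per library, with 3.3 to 4.21% of them on mitochondrial mRNAs, and 0 of those 13 mRNAs were called in any siRel comparison. The variance-stabilised (VST) table gives no depth. The targets fell in the libraries labelled for them. RELA counted 3562 and 3391 in control and 265 and 275 in siRelA libraries (log2 change -3.71 ± 0.11 SE, edgeR adjusted p 1.4e-12). RELB counted 923 and 916 in control, 90 and 107 in siRelB and 377 and 295 in siRelA libraries, so that siRelA also lowered RELB (-1.48 ± 0.14). EZH2 fell by 2.52 ± 0.07 VST units in MDA-MB-231 and by 2.0 ± 0.07 in SUM149. RELB was lower after siEZH2 as well, with means of 9.76 in control and 8.74 in siEZH2 libraries of MDA-MB-231. In SUM149 the RELB means were 9.54 and 9.05. RELA means were 11.28 and 11.20 in MDA-MB-231 and 11.30 and 11.31 in SUM149. Line markers were checked: in MDA-MB-231 controls VIM stood at 986 to 1160 CPM (counts scaled to a common library total), and CDH1 and ESR1 were at most 0.309 and 0.0431 CPM. Of 5 epithelial line markers tested in the controls of both lines, 2 were higher and 2 lower in SUM149. CDH1 lay at 7.71 to 7.72 VST units in MDA-MB-231 and at 8.32 to 8.40 in SUM149. KRT14 was too low to be tested, at 7.12 in MDA-MB-231 and 7.12 to 7.28 in SUM149. KRT5 was at the lowest VST value of 7.12 in MDA-MB-231 and at 10.32 to 10.33 in SUM149, while KRT8 (13.67 to 13.70 against 12.05 to 12.18) and KRT18 (14.37 to 14.43 against 12.99 to 13.02) were lower in SUM149. Of 5 mesenchymal line markers, 2 were higher in SUM149, VIM (15.04 to 15.11 against 15.93 to 15.99) and CDH2 (8.42 to 8.46 against 12.38 to 12.45), and 2 were lower. The fibroblast marker DCN lay at 7.24 to 7.35 in MDA-MB-231 and at 11.16 to 11.27 in SUM149 controls. These markers thus did not set SUM149 apart as the more epithelial line, and the identity of the lines rests on the labels.

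Enzymes of lower glycolysis were the most abundant members in the MDA-MB-231 siRel-Control libraries. Levels here are CPM per kilobase of exon, averaged over the 2 siRel-Control libraries. The length covers all annotated exons of a gene and not a single transcript, so the order of genes depends on the annotation. It also differed between the experiments. In MDA-MB-231 siEZ-Control libraries GAPDH, ENO1, PKM and LDHA led as well (means of 16.52, 16.19, 16.02 and 15.17 VST units). PGAM1 (11.54) lay far below TPI1 (14.08) there. ALDOA averaged 14.34 VST units there but only 3.49 on the scale used here. GAPDH, the glyceraldehyde-phosphate dehydrogenase, led with 999 ± 105 (SD, n = 2), followed by ENO1 (542), PKM (395) and LDHA (327). TPI1 (262) and PGAM1 (249) came next and did not differ beyond their spread. SLC2A1, the basal glucose transporter GLUT1, stood at 132, PGK1 at 112 and HIF1A at 98.7. At the low end stood PDK1 (1.84), ANKRD37 (1.62), EGLN3 (1.45), ALDOC (0.983), CA9 (0.505), PDK3 (0.417) and SLC16A1 (0.0826). The carbonic anhydrase gene CA9 counted 17 and 20 reads and SLC16A1, the lactate transporter MCT1, 10 and 14, so no statement on their change was possible at this depth.

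After siRelA, 20 of the 40 genes fell and 0 rose, where a call means an edgeR adjusted p under 0.05. Over all 15930 genes tested, 10.2% fell and 8.82% rose. The median log2 change was -0.30 for the 40 genes and 0.02 for all genes. The fall reached at least 2-fold in 8 of the 20, namely SLC2A3, LDHA, ADM, HIF1A, HK1, PFKFB3, HK2 and ANKRD37. Falls of that size were not counted over all genes, and the shares above are for calls of any size. Because the members were chosen with earlier results of these data known, the comparison with all genes is a description and not a test. By role, 1 of 2 glucose transporters, 7 of 15 glycolytic enzymes, 1 of 2 phosphofructokinase regulators, 3 of 6 genes of pyruvate and lactate handling, 1 of 5 HIF subunits and sensors and 7 of 10 effectors fell. In bulk RNA, fewer cells of a type and less RNA per cell cannot be told apart. The members together took 1.77 and 1.66% of the counts in control, 1.46 and 1.42% in siRelA and 1.68 and 1.69% in siRelB libraries.

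**Figure D1:**
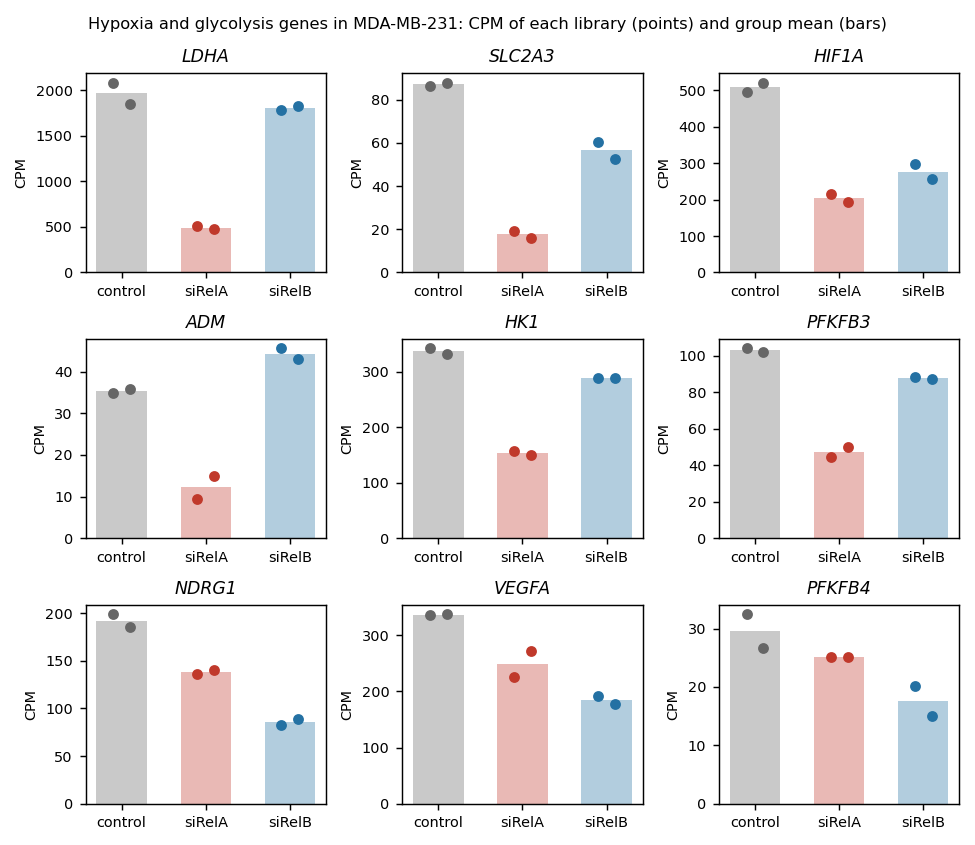
CPM (y axis, linear, starting at 0) of 9 genes in MDA-MB-231 siRel-Control, siRelA and siRelB libraries; points are libraries and bars are the means of 2 libraries. LDHA, SLC2A3, ADM, HK1 and PFKFB3 were lowest in siRelA, and NDRG1, VEGFA and PFKFB4 were lowest in siRelB.

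A glucose transporter and a lactate dehydrogenase fell most after siRelA. SLC2A3, the high-affinity glucose transporter GLUT3, stood at 86.6 and 87.9 CPM in control libraries, at 19.1 and 16.1 in siRelA and at 60.3 and 52.8 in siRelB. The 3 groups did not overlap, with siRelA lowest. The log2 change was -2.31 ± 0.12 (SE, edgeR adjusted p 9.0e-10), a 4.96-fold fall. The other transporter, SLC2A1, went the other way in value, from 899 and 847 CPM to 972 and 928, and was not called (0.12 ± 0.07, edgeR adjusted p 0.284). LDHA, which reduces pyruvate to lactate, stood at 2080 and 1850 CPM in control, 506 and 474 in siRelA and 1780 and 1820 in siRelB libraries. It fell 4.01-fold after siRelA (-2.0 ± 0.08, edgeR adjusted p 5.1e-11). Its share of all counts was 0.201 and 0.181% in control libraries and 0.0512 and 0.0486% in siRelA libraries. LDHB, the isoform that favours lactate oxidation, was not called (0.15 ± 0.16).

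Among the glycolytic enzymes, the hexokinases, which trap glucose in the cell, fell most. HK1 stood at 342 and 331 CPM in control, 157 and 149 in siRelA and 288 and 289 in siRelB libraries (siRelA change -1.14 ± 0.08, edgeR adjusted p 3.9e-08). HK2 stood at 133 and 138 CPM in control, 65.5 and 65.2 in siRelA and 115 and 113 in siRelB libraries (siRelA change -1.05 ± 0.09, edgeR adjusted p 2.6e-07). In both genes the siRelA libraries lay below all 4 others. PFKFB3, a kinase that makes the activator of phosphofructokinase, stood at 104 and 102 CPM in control and 44.4 and 49.8 in siRelA libraries (-1.13 ± 0.10, edgeR adjusted p 3.5e-07). Its relative PFKFB4 was not called after siRelA (-0.23 ± 0.15). The phosphoglycerate mutase PGAM1 fell from 641 and 626 to 424 and 445 CPM (-0.54 ± 0.07). Changes of ENO2 (-0.37), ENO1 (-0.30), PFKP (-0.28) and PGK1 (-0.23) were smaller. The 8 enzymes without a call were GPI, PFKL, PFKM, ALDOA, ALDOC, TPI1, GAPDH and PKM. Of these GAPDH changed by -0.06 ± 0.08, PKM by 0.05 ± 0.07 and TPI1 by -0.22 ± 0.08 (edgeR adjusted p 0.0591). TPI1 was called with DESeq2 (-0.23), with no filter (-0.24) and without siRel-Control replicate 2 (-0.31).

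Of the remaining genes of pyruvate handling, PDK1, a kinase that shuts off pyruvate dehydrogenase, stood at 29.1 and 25.6 CPM in control, 14.4 and 17.4 in siRelA and 16.7 and 15.2 in siRelB libraries. Both knockdowns lay below control and overlapped each other (siRelA change -0.78 ± 0.15, edgeR adjusted p 0.00138). SLC16A3, the lactate exporter MCT4, stood at 390 and 382 CPM in control and 297 and 329 in siRelA libraries (-0.30 ± 0.08, edgeR adjusted p 0.0117). PDK3 was not called (-0.03 ± 0.21).

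Of the 5 HIF subunits and sensors among the 40 genes, HIF1A alone was called after siRelA. It stood at 496 and 521 CPM in control, 215 and 193 in siRelA and 297 and 256 in siRelB libraries, with no overlap between the 3 groups. The siRelA change was -1.32 ± 0.09 (edgeR adjusted p 3.4e-08), a 2.49-fold fall. The partner ARNT (0.25 ± 0.12), the alternative subunit EPAS1 (-0.21 ± 0.12) and the sensors EGLN1 (-0.17 ± 0.09) and EGLN3 (-0.43 ± 0.20) were not called.

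The falls of the 7 effectors ranged widely in size. ADM, which encodes the vasodilator peptide adrenomedullin, stood at 34.9 and 35.8 CPM in control, 9.47 and 14.9 in siRelA and 45.6 and 43.1 in siRelB libraries. The siRelA libraries were lowest and the siRelB libraries highest (siRelA change -1.54 ± 0.17, edgeR adjusted p 5.2e-06). BNIP3, a mitophagy receptor, stood at 216 and 192 CPM in control and 120 and 123 in siRelA libraries (-0.75 ± 0.09, edgeR adjusted p 1.3e-05). Its relative BNIP3L changed less (-0.37 ± 0.09). The angiogenic factor VEGFA stood at 336 and 338 CPM in control, 226 and 272 in siRelA and 192 and 178 in siRelB libraries (siRelA change -0.44 ± 0.09, edgeR adjusted p 0.00262). The stress-response gene NDRG1 stood at 199 and 185 CPM in control, 136 and 140 in siRelA and 82.4 and 88.5 in siRelB libraries (siRelA change -0.48 ± 0.09). For VEGFA and NDRG1 the order was control, siRelA, siRelB, without overlap. The collagen prolyl hydroxylase subunit P4HA1 fell (-0.48 ± 0.09), while P4HA2 (-0.12 ± 0.10) and the histone demethylase KDM3A (-0.02 ± 0.11) were not called. ANKRD37 counted 86 and 81 reads in control and 46 and 36 in siRelA libraries (-1.05 ± 0.36, edgeR adjusted p 0.0494).

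Of the 20 falls after siRelA, 13 were called under every alternative. The call of ANKRD37 ended without any 1 of the 4 libraries compared (edgeR adjusted p 0.0965 to 0.211), and also with upper quartile normalization (0.0574), DESeq2 (0.0955) and a replicate block (0.0537). The call of PGK1 ended with upper quartile normalization (0.0904), with only the 2 groups compared (0.0716) and without siRel-Control replicate 1 or 2, siRelA replicate 1 or either siRelB library (0.0551 to 0.196). Without siRel-Control replicate 1 the calls of ENO1 (0.0741), ENO2 (0.259), PFKP (0.163) and SLC16A3 (0.075) ended, and those of BNIP3L ended without siRel-Control replicate 2 (0.0693) or siRelA replicate 2 (0.058). ENO2 (0.18) and SLC16A3 (0.0725) also lost the call without siRelA replicate 1, and PFKP without siRelA replicate 2 (0.112). Fibroblast markers moved with siRelA: 2 of 5 tested, COL1A1 and COL1A2, rose, and the list summed to 42.9 to 45.5 CPM in control, 66.9 to 80.4 in siRelA and 46.3 to 55.0 in siRelB libraries. Their defining marker DCN was at 0 CPM in all 6 libraries. Haematopoietic markers summed to 11.9 to 12.6, 17 to 17.1 and 8.86 to 9.64 CPM, of which 0 of 2 tested were called after siRelA and 1 of 2 fell after siRelB, with CD3E and HBB at 0. Of 5 mesenchymal line markers, 2 fell after siRelA and 2 after siRelB, MSN and ZEB1 in both. MSN lay at 1090 to 1110 CPM in control, 301 to 311 in siRelA and 917 to 929 in siRelB libraries, and ZEB1 at 79.2 to 91.3, 55.9 to 61.2 and 60.8 to 64.1. Of 3 epithelial line markers tested, 0 were called after siRelA and EPCAM fell after siRelB. The part of these markers in the results was not tested.

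After siRelB, 11 of the 40 genes fell and 0 rose, beside 10.8% and 7.45% of all genes tested. The median log2 change was -0.16 for the 40 genes and 0.01 for all. NDRG1 fell most, 2.24-fold (-1.17 ± 0.09, edgeR adjusted p 1.6e-07), and was the only fall of at least 2-fold. HIF1A (-0.88 ± 0.09, edgeR adjusted p 3.7e-06), VEGFA (-0.87 ± 0.09, edgeR adjusted p 5.4e-06) and PDK1 (-0.78 ± 0.15, edgeR adjusted p 0.00168) followed. PFKFB4 stood at 32.5 and 26.6 CPM in control, 25.1 and 25.2 in siRelA and 20.2 and 15.1 in siRelB libraries. Only the siRelB libraries were set apart far enough for a call (-0.75 ± 0.16, edgeR adjusted p 0.00303). P4HA2 stood at 82.6 and 84.5 CPM in control, 75.8 and 77.9 in siRelA and 50.9 and 58.3 in siRelB libraries (-0.61 ± 0.10, edgeR adjusted p 3.4e-04). SLC2A3 changed by -0.63 ± 0.11 and BNIP3 by -0.43 ± 0.09. The smallest called changes were those of the phosphofructokinases PFKL (-0.31 ± 0.09) and PFKP (-0.29 ± 0.08) and of HK2 (-0.25 ± 0.09, edgeR adjusted p 0.05 after rounding, just under the threshold).

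LDHA was not called after siRelB (-0.13 ± 0.08, edgeR adjusted p 0.274), nor were HK1 (-0.22 ± 0.08, 0.0549), PFKFB3 (-0.23 ± 0.09, 0.0975), ADM (0.33 ± 0.16, 0.162) and ARNT (0.35 ± 0.12, 0.0506). Of the 11 falls 7 were called under every alternative. Leaving out siRel-Control replicate 1 gave 7 called genes, ending the calls of PFKFB4 (edgeR adjusted p 0.0578), PFKL (0.172), PFKP (0.147) and HK2 (0.136). PFKL and PFKP also lost their calls without siRelB replicate 1 (0.131 and 0.131) or siRelB replicate 2 (0.0551 and 0.0526). HK2 also lost its call without siRel-Control replicate 2 (0.237), siRelB replicate 1 (0.155) or siRelB replicate 2 (0.178), and with RLE scaling (0.053), upper quartile normalization (0.0654), no filter on low counts (0.0523) or a replicate block (0.0697).

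**Figure D2:**
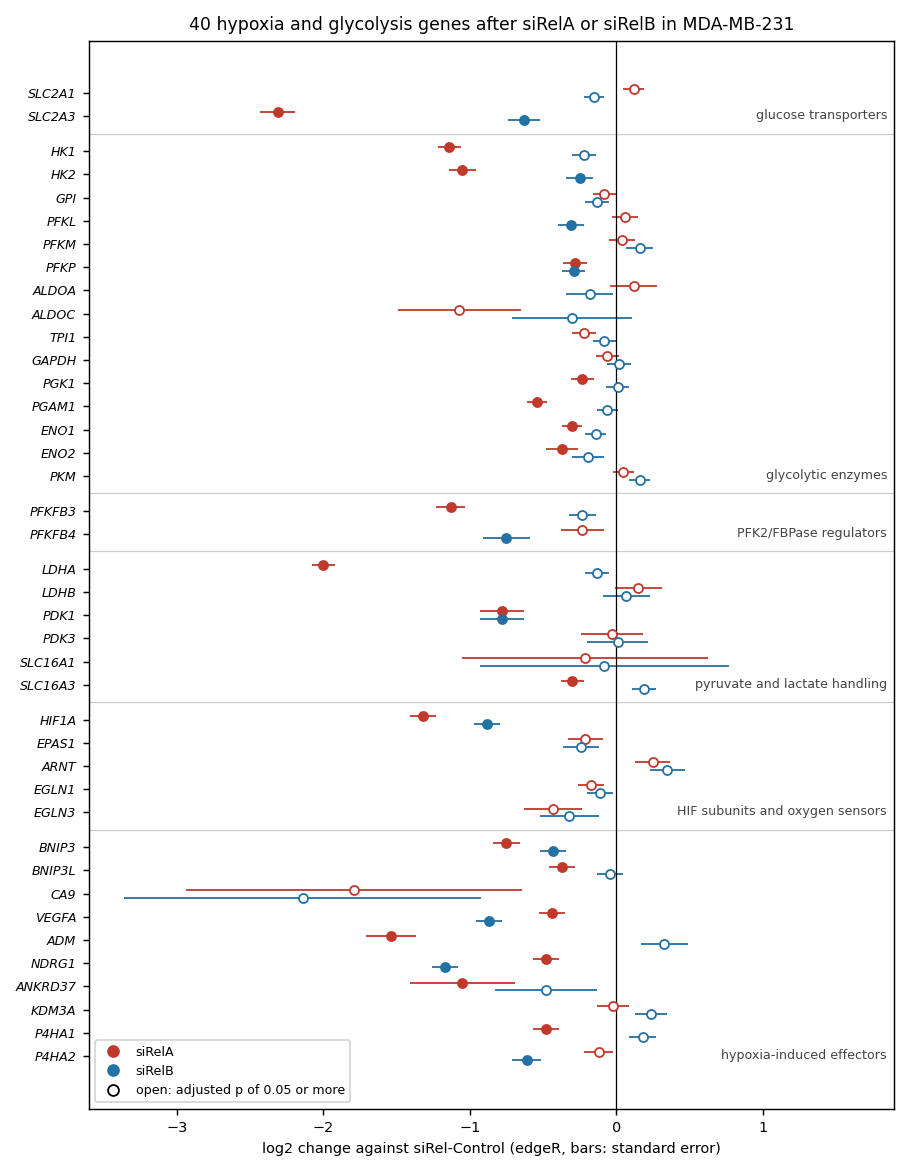
Log2 change against siRel-Control (x axis, edgeR, bars are standard errors) for the 40 genes, grouped by role, after siRelA (red) and siRelB (blue); open circles have an adjusted p of 0.05 or more. No filled circle lies to the right of 0, and SLC2A3, LDHA, ADM, HK1 and PFKFB3 lie farther left in red than in blue.

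The 2 knockdowns share their control libraries, so their changes are not independent. Counted side by side, 8 genes fell after both (SLC2A3, HK2, PFKP, PDK1, HIF1A, BNIP3, VEGFA and NDRG1), 12 were called after siRelA and not siRelB, 3 after siRelB and not siRelA (PFKL, PFKFB4 and P4HA2), and 17 after neither. Such combinations were not counted over all genes, so these counts only describe the members. The direct comparison of siRelA with siRelB does not use the controls. It called 13 genes lower and 6 higher in siRelA, beside 14.0% and 16.0% of all genes tested, with a median of -0.13 for the 40 genes and 0.01 for all.

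LDHA (3.67-fold, -1.88 ± 0.08, edgeR adjusted p 1.3e-10), ADM (3.64-fold, -1.87 ± 0.17, edgeR adjusted p 4.7e-07) and SLC2A3 (3.21-fold, -1.68 ± 0.12, edgeR adjusted p 3.4e-08) were lower in siRelA than in siRelB by more than 2-fold. HK1 (-0.91 ± 0.08), PFKFB3 (-0.90 ± 0.10), HK2 (-0.80 ± 0.09), P4HA1 (-0.66 ± 0.09), SLC16A3 (-0.50 ± 0.08), PGAM1 (-0.48 ± 0.07), HIF1A (-0.44 ± 0.09), BNIP3L (-0.33 ± 0.09), BNIP3 (-0.32 ± 0.09) and PGK1 (-0.24 ± 0.08) completed the lower set. The higher set was NDRG1 (0.69 ± 0.09, edgeR adjusted p 1.7e-05), PFKFB4 (0.52 ± 0.16), P4HA2 (0.49 ± 0.10), VEGFA (0.43 ± 0.09), PFKL (0.37 ± 0.09) and SLC2A1 (0.27 ± 0.07). PFKFB4 was at 0.33 (edgeR adjusted p 0.194) without siRelB replicate 2 and was not called without siRelA replicate 1 (0.0599). BNIP3 lost its call without siRelB replicate 2 (0.106), BNIP3L without siRelA replicate 2 (0.0822) or siRelB replicate 1 (0.0777), and PGK1 and SLC2A1 without siRelA replicate 1 (0.123 and 0.0597) or either siRelB library (0.0585 to 0.164). PDK1 did not differ between the knockdowns beyond its error (-0.01 ± 0.15).

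Other genes of these pathways were counted on lists by function, beside 10.2% of all genes falling and 8.82% rising after siRelA, and 10.8% and 7.45% after siRelB. These list counts were not tested against all genes, and several lie near the share over all genes. Of 15 other HIF regulators tested, 3 fell and 1 rose after siRelA. The falls included CUL2, the scaffold of the VHL ubiquitin ligase (-0.78 ± 0.10), HIF1AN, which hydroxylates HIF (-0.54 ± 0.10), and VHL itself (-0.41 ± 0.09). After siRelB 2 fell and 1 rose. Of 36 other hypoxia-induced genes, 5 fell and 4 rose after siRelA, with RRAGD (1.17 ± 0.14) and haem oxygenase HMOX1 (1.09 ± 0.13) highest. After siRelB 11 fell and 2 rose, led by the carbonic anhydrase CA12 (-1.44 ± 0.16), ZNF395 (-1.39 ± 0.10) and the creatine transporter SLC6A8 (-1.02 ± 0.26). CA12 rose after siRelA (0.69 ± 0.15). Of 37 other genes of glucose, pyruvate and the pentose phosphate pathway, 5 fell and 6 rose after siRelA, and 4 fell and 3 rose after siRelB. RPIA of the pentose phosphate pathway (-0.96 ± 0.15) and DLAT of pyruvate dehydrogenase (-0.61 ± 0.10) fell most after siRelA, where LDHD (1.53 ± 0.46) and the transporter SLC2A12 (0.82 ± 0.19) rose most. The phosphoglucomutase PGM2 rose most after siRelB (1.5 ± 0.10).

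The siEZH2 experiment measured the same genes in both lines. VST values are on a scale close to log2 for abundant genes, and for rare genes they understate a fold. A fold given here was therefore computed from values transformed back from that scale, and is approximate because the settings of the transformation are not known. ALDOC and CA9 lay below the filter on low values, which left 38 genes. In MDA-MB-231, 16 of the 38 rose and 10 fell by limma at an adjusted p under 0.05, beside 29.4% and 27.1% of all 12356 genes tested, with a median change of 0.07 for the members and 0.00 for all. In SUM149, 15 rose and 11 fell, beside 29.4% and 28.6% of all genes, with medians of -0.03 and -0.00. Calls were thus frequent throughout the table and the members moved in both directions.

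**Figure D3:**
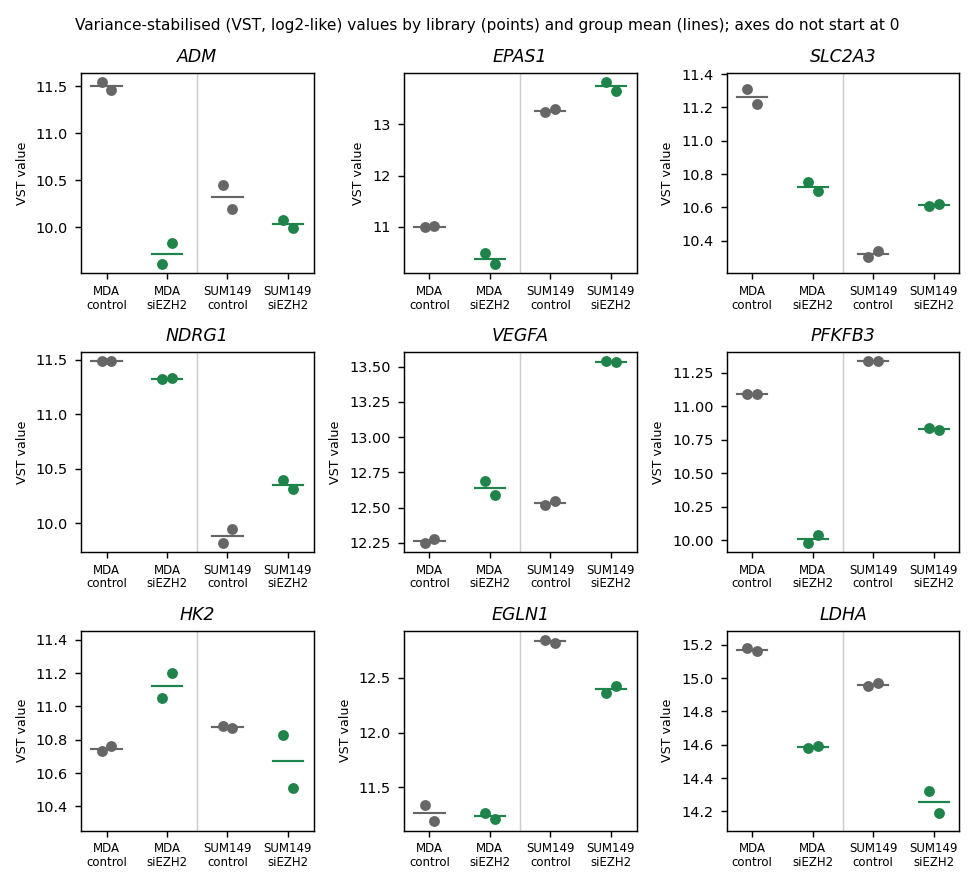
VST values (y axis, log2-like, not starting at 0) of 9 genes in control and siEZH2 libraries of MDA-MB-231 and SUM149; points are libraries and lines are the means of 2 libraries. EPAS1, SLC2A3 and NDRG1 were lower after siEZH2 in MDA-MB-231 and higher in SUM149, and LDHA was lower in both lines.

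LDHA and PFKFB3 were among the 6 genes that fell in both lines. LDHA stood at 15.18 and 15.16 in MDA-MB-231 control, 14.58 and 14.59 in MDA-MB-231 siEZH2, 14.95 and 14.97 in SUM149 control and 14.32 and 14.19 in SUM149 siEZH2 libraries. It was lower after siEZH2 in both lines, 1.51-fold (-0.59 ± 0.06, limma adjusted p 4.4e-06) and 1.64-fold (-0.70 ± 0.06, limma adjusted p 8.0e-07). PFKFB3 stood at 11.09 and 11.09 against 9.98 and 10.04 in MDA-MB-231, and in SUM149 control libraries at 11.34 and 11.34, against 10.84 and 10.82 after siEZH2. Its fall was 2.48-fold in MDA-MB-231 (-1.08 ± 0.05, with a limma adjusted p of 2.6e-09) and 1.5-fold in SUM149 (-0.51 ± 0.05, limma adjusted p 2.8e-06). LDHB (-0.25 ± 0.07 and -0.24 ± 0.07), SLC16A1 (-0.22 ± 0.05 and -0.47 ± 0.05), PFKM (-0.22 ± 0.06 and -0.33 ± 0.06) and ADM were the other members that fell in both lines. SLC16A1 in MDA-MB-231 lay less than 1 unit above the lowest value of the table, and on back-transformed values its change there was -0.94.

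ADM showed the largest change of the set. It stood at 11.54 and 11.46 in MDA-MB-231 control and 9.61 and 9.83 in siEZH2 libraries, a 4.46-fold fall (-1.78 ± 0.09, limma adjusted p 2.6e-09). In SUM149 it stood at 10.45 and 10.20 in control and 10.08 and 9.99 in siEZH2 libraries (-0.29 ± 0.09, limma adjusted p 0.0116). The SUM149 call ended without siEZ-Control replicate 1 (-0.17, limma adjusted p 0.141) or siEZH2 replicate 2 (-0.25, 0.0924).

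The mitophagy receptor BNIP3L, P4HA2 and HK1 rose in both lines. BNIP3L stood at 10.80 and 10.73 against 12.04 and 12.03 in MDA-MB-231 (2.65-fold, 1.26 ± 0.06, limma adjusted p 1.1e-09). In SUM149 its values were 9.80 and 9.86 against 10.75 and 10.82 (2.29-fold, 0.95 ± 0.06). P4HA2 rose 1.88-fold (0.81 ± 0.07) and 1.95-fold (0.88 ± 0.07), and HK1 by 0.60 ± 0.06 and 0.62 ± 0.06. VEGFA stood at 12.25 and 12.28 against 12.69 and 12.59 in MDA-MB-231 (0.37 ± 0.05) and, in SUM149, at 12.52 and 12.55 against 13.54 and 13.53 (2.05-fold, 1.00 ± 0.05, limma adjusted p 6.8e-09). HIF1A stood at 13.30 and 13.29 against 13.55 and 13.53 in MDA-MB-231 and at 14.03 and 14.05 against 14.46 and 14.40 in SUM149. Its rise was 0.24 ± 0.05 (limma adjusted p 0.00159) and 0.39 ± 0.05 (limma adjusted p 3.6e-05). SLC2A1 (0.21 and 0.38), PGAM1 (0.60 and 0.37), SLC16A3 (0.53 and 0.25), PKM (0.37 and 0.23), PFKL (0.27 and 0.27) and ARNT (0.24 and 0.27) completed the 11 genes that rose in both lines.

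Counted over the lines, 11 members rose in both, 6 fell in both and 3 were called in opposite directions. These combinations were not counted over all genes, where calls were frequent in each line, so the counts only describe the members. The 5 that rose only in MDA-MB-231 were HK2 (0.38 ± 0.09), PFKP (0.19), ENO1 (0.26), PDK1 (0.28) and EGLN3 (0.31), and PDK3 fell only there (-0.45 ± 0.10). In SUM149 alone PFKFB4 rose (0.52 ± 0.08) and EGLN1 (-0.44 ± 0.06), BNIP3 (-0.33 ± 0.05), ENO2 (-0.23), ALDOA (-0.22) and P4HA1 (-0.17) fell. GPI, TPI1, GAPDH, PGK1, ANKRD37 and KDM3A were called in neither line. A call in 1 line and not in the other is no difference between them, which the interaction term tests.

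Many of these calls were small. In MDA-MB-231, 16 of 26 were kept under every alternative and in SUM149 17 of 26. In MDA-MB-231, quantile normalization ended the calls of PKM (change 0.10, limma adjusted p 0.241) and ENO1 (change 0.09, limma adjusted p 0.318). ENO1 also lost its call without siEZ-Control replicate 1 or 2 or siEZH2 replicate 2 (limma adjusted p 0.0759 to 0.105). PFKL and PFKP lost theirs without the same 3 libraries, and without siEZH2 replicate 2 both changes were 0.10. NDRG1 lost its call without any 1 of the 4 MDA-MB-231 libraries (0.0798 to 0.127). With no filter on low values NDRG1 (0.0506), PFKL (0.0642) and PFKP (0.0691) were not called, nor were they on back-transformed values (0.0567, 0.0506 and 0.052). LDHB and ARNT lost theirs without siEZ-Control replicate 1 (0.0684 and 0.188) or siEZH2 replicate 1 (0.0596 and 0.135), PFKM without siEZ-Control replicate 2 (0.0534) or siEZH2 replicate 1 (0.0755) and SLC2A1 without siEZ-Control replicate 1 (0.0838). On back-transformed values EGLN3 was not called (0.58, limma adjusted p 0.162).

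In SUM149, SLC16A3 and PKM lost their calls without each of 5 libraries (limma adjusted p 0.0601 to 0.332 and 0.0548 to 0.222), SLC16A3 without either MDA-MB-231 control, SUM149 control replicate 2 or either SUM149 siEZH2 library, and PKM without any 1 of the 4 controls or SUM149 siEZH2 replicate 1. The change of SLC16A3 was 0.11 without SUM149 siEZ-Control replicate 2. PFKL (0.0842 to 0.188) and ENO2 (0.061 to 0.107) lost theirs without siEZ-Control replicate 2 or either siEZH2 library. LDHB (0.0617) and P4HA1 (0.0754) lost theirs without siEZ-Control replicate 2, P4HA1 also without siEZH2 replicate 1 (0.0815), and LDHB also under quantile normalization (-0.10). SLC16A3 (0.072) and PFKL (0.0583) were not called with no filter, SLC16A3 (0.0591) and PKM (0.0527) on back-transformed values, and PKM with a replicate block (0.0522). ARNT lost its call without siEZ-Control replicate 1 (0.137) or siEZH2 replicate 1 (0.0818), and ALDOA without siEZH2 replicate 2 (0.0831).

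Fibroblast and haematopoietic markers also rose with siEZH2. Of 4 fibroblast markers tested, 2 rose in MDA-MB-231 and 3 in SUM149, and 0 fell. Their summed back-transformed value was 329 to 347 in MDA-MB-231 control, 652 to 702 in MDA-MB-231 siEZH2, 2220 to 2350 in SUM149 control and 4630 to 4870 in SUM149 siEZH2 libraries. DCN lay at 11.16 to 11.27 VST units in SUM149 controls and 12.17 to 12.26 in SUM149 siEZH2, and at most at 7.35 in MDA-MB-231. All 3 haematopoietic markers tested rose in both lines, with sums of 1500 to 1780, 3470 to 3560, 2060 to 2480 and 5230 to 5620 in the same order. CD68 led these sums, while CD3E lay at the lowest value of 7.12 in every library and PTPRC at most at 7.31. The experiments disagreed on CD68 in MDA-MB-231. It lay at 10.72 to 10.95 VST units in siEZ-Control and at 0 to 0.221 CPM in siRel-Control libraries, so these sums are uncertain. Line markers moved as well. Of 5 epithelial markers tested, 3 fell and 0 rose in MDA-MB-231, and 2 fell and 3 rose in SUM149. EPCAM lay at 10.61 to 10.71 in control and 9.59 to 9.66 in siEZH2 libraries of MDA-MB-231, and at 10.75 to 10.86 and 8.63 to 8.66 in SUM149. Of 5 mesenchymal markers, 2 rose and 1 fell in MDA-MB-231, and 4 rose and 0 fell in SUM149. ZEB1 lay at 10.51 to 10.58 in control and 11.77 to 11.80 in siEZH2 libraries of MDA-MB-231. The part of these markers in the results was not tested.

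The interaction term tested whether the siEZH2 change differed between the lines. It was higher in SUM149 for 7 of the 38 genes and lower for 7, beside 11.2% and 10.4% of all genes tested, with a median of -0.11 for the members and -0.01 for all. ADM differed most, by 1.49 ± 0.12 (limma adjusted p 3.8e-06). EPAS1, the alternative HIF alpha subunit, stood at 10.99 and 11.02 in MDA-MB-231 control and 10.49 and 10.27 in siEZH2 libraries, and at 13.24 and 13.29 in SUM149 control and 13.82 and 13.66 in siEZH2 libraries. It fell in MDA-MB-231 (-0.62 ± 0.07) and rose in SUM149 (0.47 ± 0.07), a difference of 1.10 ± 0.10 (limma adjusted p 9.6e-06). SLC2A3 stood at 11.31 and 11.22 against 10.75 and 10.70 in MDA-MB-231 and at 10.30 and 10.34 against 10.61 and 10.62 in SUM149. Its changes of -0.54 ± 0.06 and 0.29 ± 0.06 differed by 0.83 ± 0.08 (limma adjusted p 1.2e-05).

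NDRG1 stood at 11.49 and 11.49 against 11.32 and 11.33 in MDA-MB-231 and at 9.82 and 9.95 against 10.40 and 10.31 in SUM149, where it rose (0.47 ± 0.06). The difference was 0.64 ± 0.08 (limma adjusted p 1.8e-04). VEGFA (0.63 ± 0.07), PFKFB3 (0.57 ± 0.07) and PFKFB4 (0.37 ± 0.11) were the others with a higher change in SUM149. The change was lower in SUM149 for HK2 (-0.59 ± 0.12), EGLN3 (-0.44 ± 0.09), EGLN1 (-0.42 ± 0.08), BNIP3 (-0.33 ± 0.07), PDK1 (-0.33 ± 0.09), BNIP3L (-0.31 ± 0.08) and SLC16A1 (-0.25 ± 0.08). HK2 stood at 10.73 and 10.76 against 11.05 and 11.20 in MDA-MB-231 and at 10.88 and 10.87 against 10.83 and 10.51 in SUM149. EGLN1, the main oxygen sensor, stood at 11.34 and 11.19 against 11.27 and 11.21 in MDA-MB-231 and at 12.85 and 12.82 against 12.36 and 12.43 in SUM149. The changes of LDHA (-0.12 ± 0.09), HK1 (0.02 ± 0.09), P4HA2 (0.07 ± 0.10) and HIF1A (0.15 ± 0.08) did not pass this test.

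**Figure D4:**
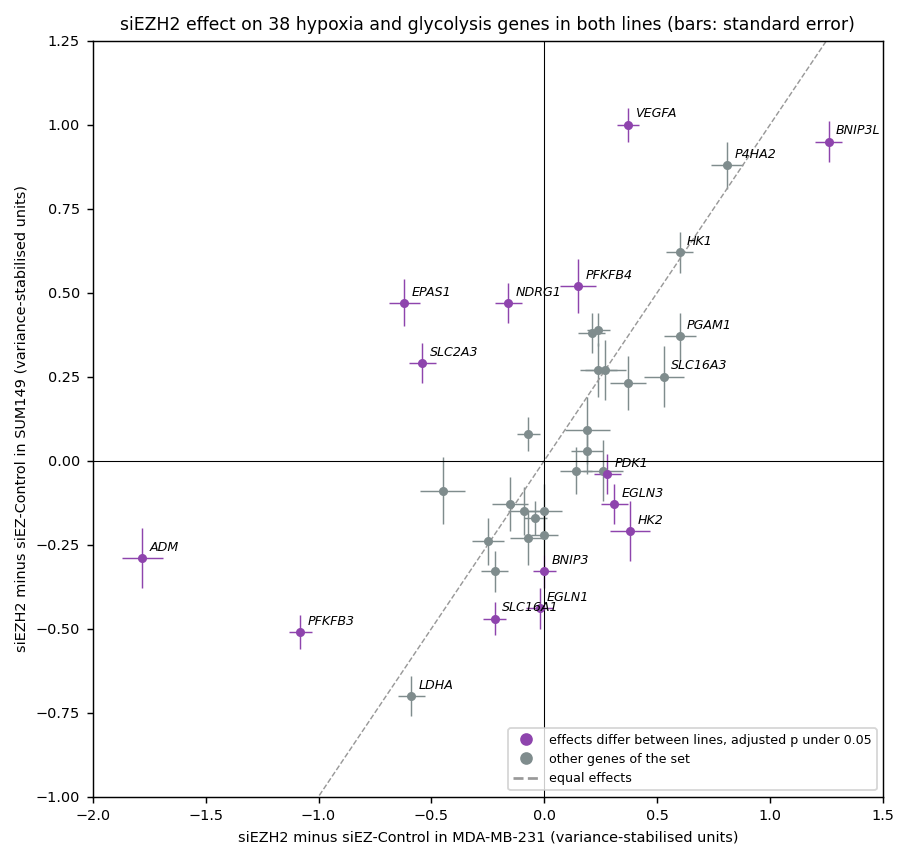
Change after siEZH2 in MDA-MB-231 (x axis) and SUM149 (y axis), both in VST units with standard errors, for 38 genes; purple marks the 14 genes whose changes differed between lines (limma adjusted p under 0.05) and the dashed line equal changes. EPAS1, SLC2A3 and NDRG1 lie to the upper left of the origin, and LDHA, HK1 and P4HA2 lie near the dashed line.

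Of the 14 differences, 10 were kept under every alternative. PFKFB4 lost its call without MDA-MB-231 siEZ-Control replicate 1 (limma adjusted p 0.0527) or 2 (0.149), MDA-MB-231 siEZH2 replicate 1 (0.1), SUM149 siEZ-Control replicate 1 (0.0728) or SUM149 siEZH2 replicate 2 (0.138), and with no filter (0.0642) or quantile normalization (0.0554). PDK1 lost its call without MDA-MB-231 siEZ-Control replicate 1 (0.0856), MDA-MB-231 siEZH2 replicate 1 (0.0529) or SUM149 siEZH2 replicate 2 (0.0593). BNIP3L lost its call without MDA-MB-231 siEZ-Control replicate 2 (0.0678) or SUM149 siEZH2 replicate 1 (0.0575) and on back-transformed values (-0.21, 0.133). SLC16A1 lost its call without any library but MDA-MB-231 siEZ-Control replicate 2 (0.0528 to 0.115), with quantile normalization (0.166) and with a replicate block (0.0535), and on back-transformed values its sign turned (0.45, limma adjusted p 0.0468).

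The control libraries of the 2 lines differed in most members, as in most genes. Of the 38 members, 22 were higher and 11 lower in SUM149, beside 41.3% and 41.5% of all genes tested, with a median of 0.23 for the members and -0.00 for all. The lines differ in many respects beside the genes studied, and each is a single line. SLC16A1 lay close to the lowest value in MDA-MB-231 (7.88 and 7.94) and at 13.50 and 13.52 in SUM149, a difference of 5.60 ± 0.05. No fold is given for it, since the lower value was less than 1 unit above the lowest of the table. The counts of the siRel experiment were low for SLC16A1 in MDA-MB-231 as well. The exporter SLC16A3 (1.95 ± 0.09, 4.08-fold), EPAS1 (2.26 ± 0.07, 5.36-fold), LDHB (1.87 ± 0.07, 3.69-fold), EGLN1 (1.58 ± 0.06, 3.22-fold) and TPI1 (1.43 ± 0.08, 2.72-fold) were also higher in SUM149.

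Both glucose transporters were lower in SUM149. SLC2A1 stood at 14.18 and 14.25 in MDA-MB-231 and at 11.87 and 11.96 in SUM149 controls (5.23-fold, -2.30 ± 0.06), and SLC2A3 differed by -0.94 ± 0.06. NDRG1 (-1.61 ± 0.06), ADM (-1.17 ± 0.09), EGLN3 (-1.16 ± 0.06), BNIP3 (-1.12 ± 0.05), BNIP3L (-0.94 ± 0.06), PFKFB4 (-0.86 ± 0.08), P4HA1 (-0.67 ± 0.05), ENO2 (-0.62 ± 0.08) and LDHA (-0.21 ± 0.06) were lower too. For rare genes the back-transformed log2 differences were larger, -3.94 for EGLN3, which in SUM149 lay less than 1 unit above the lowest value, -1.43 for PFKFB4 and, among the genes higher in SUM149, 1.15 for ANKRD37 (0.40 in VST units). PGAM1, PDK3, PFKL, HK2 and ARNT were not called. Among glycolytic enzymes 10 of 14 were higher in SUM149 and ENO2 was lower. Quantile normalization moved the most abundant of them: PKM from 0.20 to -0.30, ENO1 from 0.62 to 0.23, GAPDH from 0.91 to 0.47, PGK1 from 0.67 to 0.38, ALDOA from 0.56 to 0.31, HK1 from 0.26 to 0.14 and LDHA from -0.21 to -0.65. The PKM difference was therefore higher or lower in SUM149 depending on the scaling. The differences of GPI, PKM and P4HA2 also lost their call without single libraries, and the values in brackets are those differences in VST units. P4HA2 lost it without MDA-MB-231 control replicate 1 (0.16) or SUM149 control replicate 2 (0.10). GPI lost it without either MDA-MB-231 control or SUM149 control replicate 2 (0.11 to 0.20). PKM lost it without any of the 4 controls (0.15 to 0.25) or either SUM149 siEZH2 library (0.20). GPI was also not called with no filter (limma adjusted p 0.0673), with quantile normalization (0.54) or on back-transformed values (0.0585), and PKM not with a replicate block (0.0641) or on back-transformed values (0.062).

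**Figure D5:**
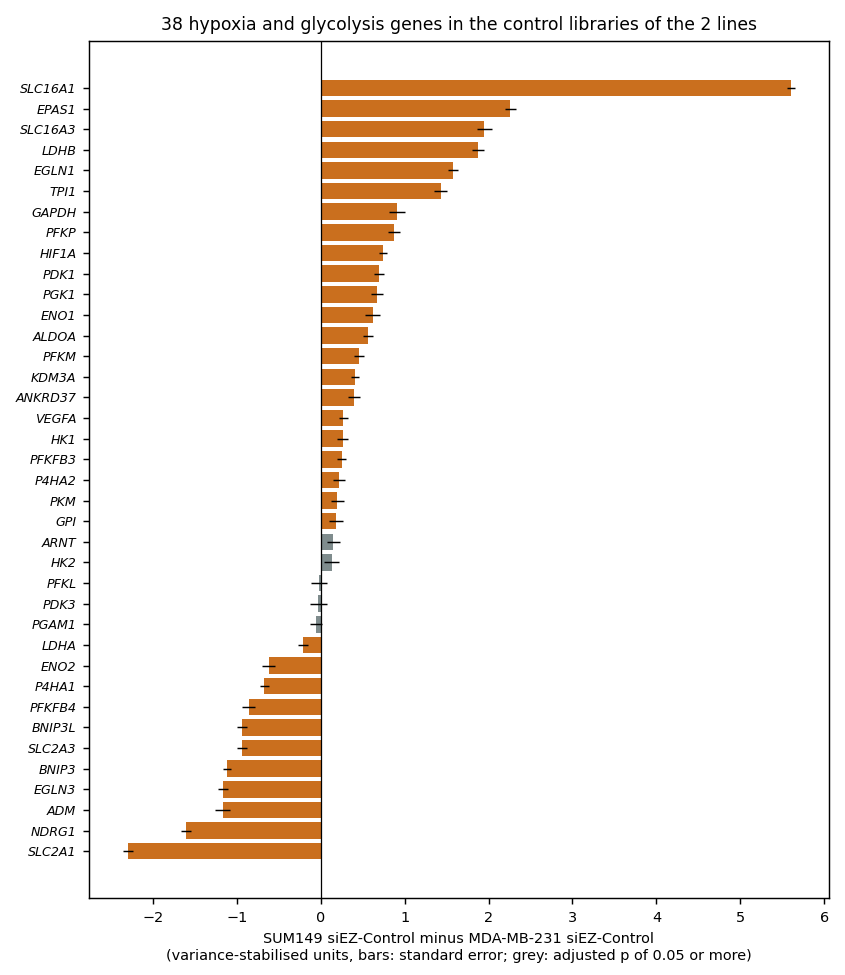
Difference between SUM149 and MDA-MB-231 siEZ-Control libraries (x axis, VST units, bars from 0 with standard errors) for 38 genes, ordered by size; grey bars have an adjusted p of 0.05 or more. SLC16A1 stands apart at 5.60, and SLC2A1 is lowest at -2.30.

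The siRel and siEZH2 experiments used separate libraries and controls. Of the 20 members that fell after siRelA, 10 rose after siEZH2 in MDA-MB-231 (HK1, HK2, PFKP, PGAM1, ENO1, PDK1, SLC16A3, HIF1A, BNIP3L and VEGFA), 5 fell (SLC2A3, PFKFB3, LDHA, ADM and NDRG1) and 5 were not called. Over all genes that fell after siRelA and were tested in both experiments, 23.3% rose and 43.9% fell after siEZH2. Of the 11 members that fell after siRelB, 7 rose, 2 fell and 2 were not called, beside 41% rising and 25.9% falling over all genes that fell after siRelB. These counts describe the members and were not tested. RELB was lower in the siRelA, siRelB and siEZH2 libraries of MDA-MB-231 than in their controls, and its part was not tested.

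Over all genes, 29.4% rose and 27.1% fell after siEZH2 in MDA-MB-231, and 29.4% rose and 28.6% fell in SUM149. Of 35 other hypoxia-induced genes tested, 14 rose and 4 fell in MDA-MB-231, and 18 rose and 7 fell in SUM149, and the counts of the lists were not tested against all genes. LOX, a collagen crosslinker, rose in both (2.16 ± 0.08 and 1.08 ± 0.08), as did ANGPTL4, a lipase inhibitor (0.76 ± 0.08 and 1.62 ± 0.08). DDIT4 in MDA-MB-231 (0.77 ± 0.06) and TXNIP in SUM149 (1.11 ± 0.08) were the others among the largest rises. PFKFB2 fell most in both lines (-0.93 ± 0.05 and -0.62 ± 0.05). Of 15 other HIF regulators, 3 rose and 4 fell in MDA-MB-231, and 3 rose and 5 fell in SUM149. VHL rose in both (0.59 ± 0.06 and 0.58 ± 0.06), while ELOC, an adaptor of the same ligase, fell in both (-0.31 ± 0.06 and -0.50 ± 0.06). Of 35 other genes of glucose, pyruvate and the pentose phosphate pathway, 11 rose and 9 fell in MDA-MB-231, and 9 rose and 9 fell in SUM149. The change after siEZH2 differed between lines for 15 of the 35 other hypoxia-induced genes, higher in 9 and lower in 6, beside 11.2% and 10.4% of all genes, with that of LOX lower (-1.07 ± 0.11) and that of ANGPTL4 higher (0.86 ± 0.12) in SUM149. In the control libraries of the lines, STC2 was higher in SUM149 (5.05 ± 0.06).

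The promoter matches shown for LDHA, HK2 and BNIP3 were set beside the calls as a description. After siRelA, 7 of 16 fallen members with a window held ACGTG (43.8%), and 7 of 19 uncalled ones did (36.8%). After siRelB, 2 of 8 fallen members (25%) and 12 of 27 uncalled ones (44.4%) did. After siEZH2 in MDA-MB-231, 1 of 14 risen members (7.14%), 2 of 7 fallen ones (28.6%) and 9 of 12 uncalled ones (75%) held it. In SUM149, 0 of 11 risen, 6 of 10 fallen (60.0%) and 6 of 12 uncalled members (50.0%) did. The kappa-B consensus was in 1 of the 16 windows of members that fell after siRelA (6.25%), that of ENO1, and in 0 of 8 after siRelB.

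Gene models limit a few values of the count table. ALDOA, on chromosome 16 at 30064164 to 30070457 of GRCh38, counted only 292 and 320 reads in control libraries, while its back-transformed values in the same line were 20100 and 20900. It shares 42.8% of its exon bases with another gene on the same strand. LDHB, on chromosome 12 at 21635342 to 21757857, counted 916 and 767, beside back-transformed values of 16900 and 16100, and shares 33.4% with another gene on its strand. EGLN1 shares 55.8% with a gene that is not among the counted identifiers. Reads of such pairs cannot be told apart, and these 3 genes are uncertain in the siRel comparisons. CA9 shares 35.7% of its exon bases with ARHGEF39 and ANKRD37 40.3% with UFSP2, both on the opposite strand, and so do GAPDH (17.6%), ALDOA (13.6%) and ALDOC (11.3%) with long non-coding RNAs. The sources used here do not give the strand setting of the counting. PGAM1 went the other way, with 14865 and 14188 counts against back-transformed values of 2760 and 2650. LDHA, on chromosome 11 at 18394560 to 18408425 on the plus strand, and SLC2A3, on chromosome 12 at 7919230 to 8019007 on the minus strand, shared less than 10% of their exon bases with another gene.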

How the data were processed

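RNA-seq tables of 14 libraries were analysed, and 30 ChIP libraries were not analysed here. The authors deposited raw counts per Ensembl gene for the siRel experiment, and per the submitters' processing notes HISAT2 2.0.5, featureCounts 1.5.0-p3 and DESeq2 1.20.0 were used. For the siEZH2 experiment the authors deposited values on a log2-like scale from a variance-stabilising transformation, and the notes list cutadapt, STAR 2.5.2b, Salmon and DESeq2. The notes name hg19, and the sources used here do not give the annotation, the strand setting or the settings of the transformation. Of the count identifiers 58207 matched a symbol. Gene positions printed here are from GENCODE release 44 on GRCh38.

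Counts of all 6 siRel libraries were fitted by group with edgeR 4.0.16 (quasi-likelihood test, TMM scaling, filterByExpr) in R 4.3.3. VST values of all 8 siEZH2 libraries were fitted with limma 3.58.1 (empirical Bayes with a variance trend), over genes that exceeded the table's lowest value by at least 1 unit in 2 or more libraries. P-values were Benjamini-Hochberg adjusted over all genes, with a call under 0.05. They measure the spread between 2 libraries a group, and depth is known for the counts only. Both fits were tested on simulated data. VST values were also transformed back to a linear scale, which did not give whole reads. Alternatives covered scaling, filter, tool, variance model, replicate block and each library left out. Members with a call were named, and of the other lists some of the 3 largest changes a direction. Some results on these lists are not reported here. Members and lists were chosen with earlier results of these data known.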

Additional observations from a re-analysis of the deposited data

Results flagged for a closer look

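The change after siEZH2 differed between SUM149 and MDA-MB-231 in 14 of the 38 genes tested, by the interaction term (limma, adjusted p under 0.05). Over all genes tested, the change was higher in SUM149 for 11.2% and lower for 10.4%. The difference, SUM149 minus MDA-MB-231 in VST units, was 1.49 for ADM, 1.10 for EPAS1, 0.83 for SLC2A3, 0.64 for NDRG1, 0.63 for VEGFA, 0.57 for PFKFB3 and 0.37 for PFKFB4. It was -0.59 for HK2, -0.44 for EGLN3, -0.42 for EGLN1, -0.33 for BNIP3, -0.33 for PDK1, -0.31 for BNIP3L and -0.25 for SLC16A1. EPAS1, SLC2A3 and NDRG1 were called in opposite directions in the lines, while ADM and PFKFB3 fell in both and VEGFA and BNIP3L rose in both to different extents. The NDRG1 fall in MDA-MB-231 lost its call without any single library of that line. The ADM fall in SUM149 lost its call without some single libraries. The differences of PFKFB4, PDK1, BNIP3L and SLC16A1 were not kept under every alternative. Groups of 2 libraries are too small for a check of single outlying libraries.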

How the results depend on the processing

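The number of members called after siRelA was 20, and ranged from 14 to 19 with 1 library left out and from 18 to 21 under the other alternatives. The same ranges were 7 to 13 and 10 to 14 after siRelB (11 called, and 7 without MDA-MB-231 siRel-Control replicate 1), 15 to 19 and 19 to 19 for siRelA against siRelB (19), 19 to 26 and 22 to 27 after siEZH2 in MDA-MB-231 (26), 20 to 26 and 25 to 27 in SUM149 (26), 11 to 15 and 13 to 15 for the difference between lines (14), and 30 to 33 and 31 to 34 for the lines' controls (33). Quantile normalization turned the sign for PKM in the difference between lines (0.32) and in the controls (-0.30), and back-transformed values, an alternative chosen after seeing the data, turned that of SLC16A1 in the difference between lines (0.45). The cause was not tested.

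Over all genes, 1405 rose and 1626 fell after siRelA, beside 646 and 978 without siRel-Control replicate 1 and 749 and 1037 without replicate 2. After siRelB 1187 rose and 1726 fell, beside 564 and 1190, and 516 and 1004, without the same libraries, and 805 and 1276 without siRelB replicate 1. For the difference between lines, 1381 were higher and 1281 lower, beside 849 and 762, and 921 and 762, without MDA-MB-231 siEZ-Control replicate 1 or 2, 953 and 819 without SUM149 siEZH2 replicate 2, and 1071 and 827 on back-transformed values.

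Replicate numbers did not pair the samples: the correlations of same-numbered libraries ranged from -0.0245 to 0.0476 in the siRel experiment and from -0.207 to 0.0879 in the siEZH2 experiment. With a replicate block the counts of called members, in the order above, were 19, 10, 19, 26, 25, 13 and 32.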
